A study of Mus musculus with 15 samples.

Results

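The core circadian clock loop was followed through 10 genes, Arntl, Clock, Npas2, Per1, Per2, Per3, Cry1, Cry2, Nr1d1 and Nr1d2, taken by name from the gene names of the array. All 10 were present, with 13 of the 29522 probes that carry a gene symbol, and they stand for 10 of the 22032 symbols measured. Livers of male CD1 mice were compared in 3 groups. In group C, mice were given saline followed by a plasmid without insert. Mice of group T had been exposed to the liver carcinogen diethylnitrosamine (DEN) and were given that same plasmid. In group G, DEN exposure was combined with pcDNA3/CAG-HAGas1, which carries the Gas1 cDNA with an HA tag behind the ubiquitous CAG promoter. Every group was thus subjected to hydrodynamic gene delivery (HGD), a rapid high-volume tail vein injection that transfects only part of the liver cells, mainly near blood vessels. The sample records give an age of 10 weeks, near that at which the study's methods say mice were obtained, whereas its account of the experiment has DEN given in infancy and livers taken from much older animals, a week after the last delivery. The hour of the day at which livers were taken is not given in the sources used here.

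In all, 15 arrays were hybridised, with 4, 5 and 6 in groups C, T and G. Arrays C3 and C4 share an RNA code, as do T4 and T5, and each pair was averaged, which gave 3, 4 and 6 mice. Nothing else in the records says how samples of a group relate, so the errors below measure only the spread between these samples. The arrays lay on 2 slides, each with all 3 groups, and 15707 to 29765 spots per array were well above background. Values are log2 intensities after normexp background correction and quantile normalization. As the background step adds an offset, differences of dim genes are compressed. The 5 hepatocyte markers (Alb, Apoa1, Ttr, Serpina1a and Cps1) were detected on every array, with a mean log2 level of 15.62 to 15.74, 15.34 to 15.69 and 15.36 to 15.71 in mice of C, T and G. The mean of 3 erythroid markers was 10.99 to 12.07, 12.28 to 12.58 and 11.44 to 13.22 in the same order, and the part of blood in the results was not tested. Single markers did differ in T against C, where Ttr was lower (log2 difference -1.01) and the macrophage marker Emr1 higher (0.31), both past an adjusted p of 0.05 in limma, while Apoa1 differed by 0.54 without passing. The other macrophage markers went both ways, with Vsig4 at 0.53, Clec4f at -0.05 and Cd68 at -0.25. None of the lists' other genes passed, and the part of these cell types was not tested. In whole liver with tumors, fewer cells of a type and less RNA per cell cannot be told apart. The Gas1 probe differed by 0.08 ± 0.08 (log2, SE) between G and T, and whether it lies in the delivered cDNA was not checked.

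The clock is a feedback loop of transcription. ARNTL, also called BMAL1, pairs with CLOCK or its relative NPAS2, binds E-box sequences and switches on the Per, Cry and Nr1d genes. PER and CRY proteins then block that pair, while NR1D1 and NR1D2, the REV-ERB nuclear receptors, repress Arntl through ROR response elements (RORE) that the ROR receptors activate. In liver the loop drives daily rhythms of lipid, bile acid and glucose metabolism, and Arntl RNA and Nr1d1 RNA reach their peaks at opposite times of day.

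The binding sequences of this loop were looked for in the RefSeq promoter windows (GRCm38.p6, 250 bases before to 50 after the start), which list 9 of the 10 genes at 13 starts. Per2 has no entry. The letters searched, on both strands, were CACGTG for the E-box (its own reverse complement, counted once), CACGTT for an E-box variant, TAGGTCA for the RORE core, TTANGTAA for the D-box and TGACGTCA for the cyclic AMP response element. The following stretches are shown because they hold the matches, with the matched letters in capitals. AACGTG is CACGTT read on the other strand.
Arntl, chr7:113207529-113207558, plus strand: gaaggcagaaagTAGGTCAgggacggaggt
Per1, chr11:69098749-69098848, plus strand: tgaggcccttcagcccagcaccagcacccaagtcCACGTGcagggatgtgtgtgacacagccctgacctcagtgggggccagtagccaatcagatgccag
Per3, chr4:151044786-151044885, minus strand: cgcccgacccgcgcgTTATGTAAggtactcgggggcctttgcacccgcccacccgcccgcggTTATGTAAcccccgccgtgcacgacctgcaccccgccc
Cry1, chr10:85185065-85185164, minus strand: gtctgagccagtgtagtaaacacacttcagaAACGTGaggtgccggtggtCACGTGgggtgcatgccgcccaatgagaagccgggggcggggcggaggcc
Cry2, chr2:92434170-92434269, minus strand: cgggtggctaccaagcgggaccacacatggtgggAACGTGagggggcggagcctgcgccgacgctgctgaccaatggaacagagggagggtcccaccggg
Nr1d1, chr11:98775378-98775477, minus strand: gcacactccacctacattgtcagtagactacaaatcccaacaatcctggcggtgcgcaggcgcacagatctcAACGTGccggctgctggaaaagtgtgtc

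An E-box thus began 166 bases upstream of a Per1 start and 60 bases upstream of that of Cry1. The variant began 79 bases upstream in Cry1, 166 in Cry2 and 28 in Nr1d1. Per3 held D-boxes at 205 and 158 bases upstream, and the RORE core began at base 31 of an Arntl transcript. Of all 32851 windows, 7.15% hold the E-box, 4.68% the variant, 2.61% the RORE core, 2.32% the D-box and 1.79% the cyclic AMP response element, which no member matched. In the windows of Clock, Npas2 and Nr1d2 none of these letters occurred. These matches are descriptions of the windows and not binding sites.

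The members were chosen by name with the log2 group differences of these arrays already known, so their group differences are described and serve as no evidence for the choice. Nr1d1 and Nr1d2 rose in T against C and Nr1d1 rose in G against C, each past an adjusted p of 0.05 in limma. Arntl was on average lower by about 1 log2 unit in both DEN groups, without passing that threshold in this fit. Of 27 alternative fits, it passed in 4 for T against C and in 4 for G against C. In both comparisons these were the fit with slide as a term and RNA code as a random block, and that with 15 arrays as separate samples. The latter counts 2 RNAs on 2 arrays each. The others were the fit after a filter for dim probes and that without mouse T1. Over the 27 fits the Arntl difference ran from -1.85 to -0.47 for T against C and from -2.11 to -0.61 for G against C. In T against C, 2 of 10 members passed, both higher, beside 2.38% of all genes (1.22% higher and 1.17% lower), and 7 had an unadjusted p under 0.05, beside 20.3%. In G against C, 1 member passed, beside 0.427% (0.177% higher), and 7 had an unadjusted p under 0.05, beside 13.2%. Between G and T, limma called none of the 10, beside 0.127% (0.0272% higher and 0.0999% lower), and 1 member (Nr1d1) had an unadjusted p under 0.05, beside 10.9%. T against C and G against C share their control mice. Nothing is read from these shares.

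**Figure D1:**
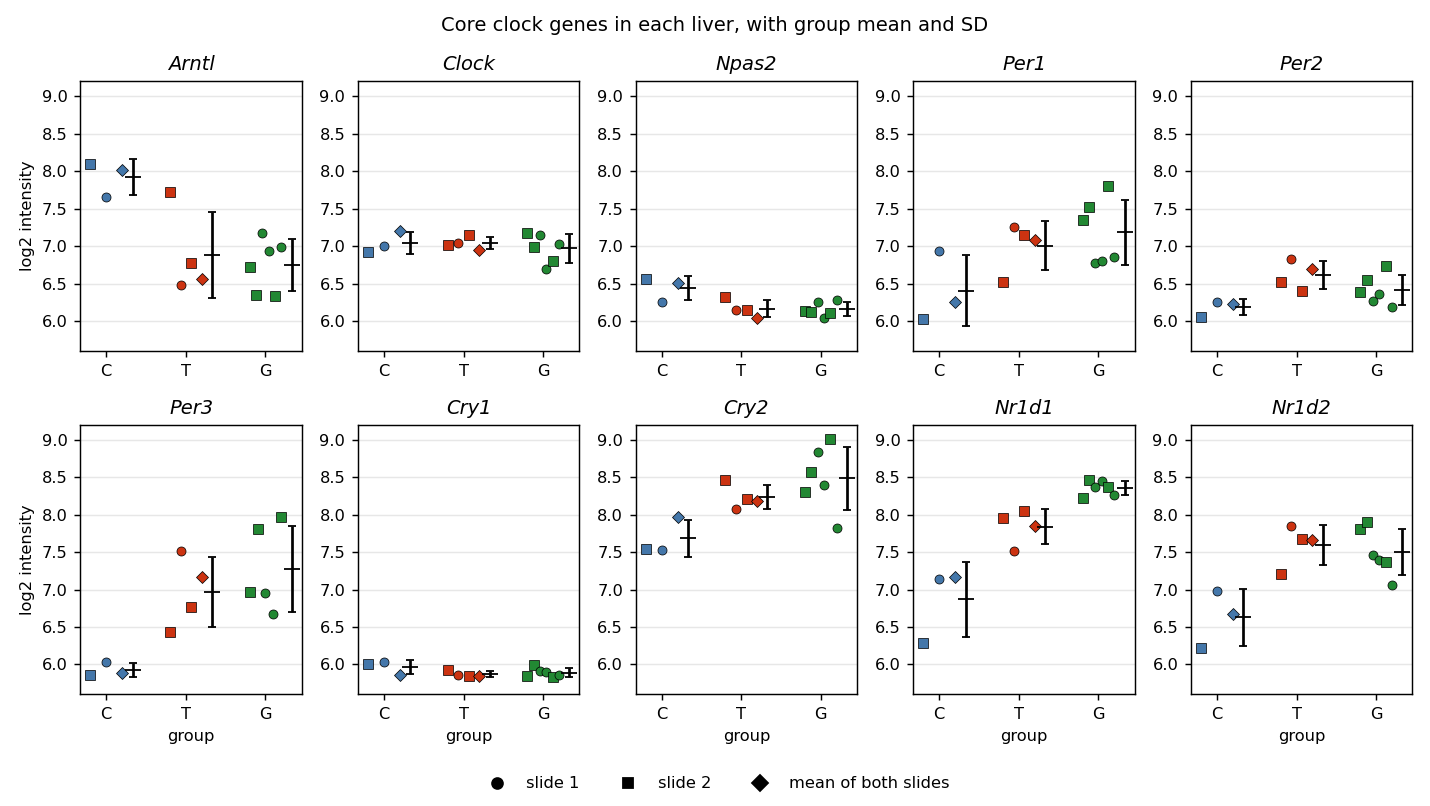
Log2 intensity of the 10 clock genes (y axis) in each liver of groups C, T and G (x axis), with marker shape giving the slide and black bars the group mean and SD. Arntl is high in the 3 livers of group C and in 1 liver of group T, Nr1d1 and Nr1d2 are lowest in group C, and Cry1 lies between 5.84 and 6.03 throughout.

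Among the activators, Arntl had log2 levels of 8.09, 7.65 and 8.02 in mice C1, C2 and C3. In group T it was 7.72, 6.47, 6.77 and 6.57 in mice T1 to T4. The 6 mice of group G ranged from 6.33 to 7.17 with a median of 6.83. Mouse T1 stood with the controls, above C2, while the other 3 mice of group T and all of group G lay below every control. The mean difference was -1.04 ± 0.28 (log2, SE) for T against C, -1.17 ± 0.26 for G against C and -0.13 ± 0.24 for G against T. Without T1 the difference of T against C was -1.32, and Arntl passed in T against C and in G against C.

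Clock, the partner of ARNTL, showed 6.92, 6.999 and 7.20 in group C and 7.02, 7.05, 7.14 and 6.95 in group T, with 6.69 to 7.18 (median 7.01) in group G. The 3 groups overlapped. The difference of T against C was 0.00 ± 0.11, with a 95% interval from -0.24 to 0.25, and its sign changed with the scaling. Npas2, the other partner of ARNTL, was at 6.56, 6.25 and 6.51 in group C. Group T followed at 6.32, 6.15, 6.15 and 6.05, and group G at 6.04 to 6.28 (median 6.13). Its probe was well above background on 3 of 4, 1 of 5 and 2 of 6 arrays of the groups. Npas2 differed by -0.27 ± 0.09 in T against C and by -0.28 ± 0.08 in G against C, neither past the threshold.

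Of the period genes, whose products form the repressor complex, Per1 was read by 2 probes. The probe at chr11:68919895-68919954 (mm9, as the files give it) was well above background on no array and carried almost no difference. The probe at chr11:68923364-68923423 was well above background on 14 arrays, and its group means were 6.95 ± 0.94 (SD, n = 3) in C, 8.04 ± 0.69 (n = 4) in T and 8.42 ± 0.87 (n = 6) in G. With both probes averaged, Per1 was 6.03, 6.93 and 6.26 in group C. It was 6.52, 7.25, 7.15 and 7.08 in group T, while group G ran from 6.77 to 7.80 (median 7.10). Mouse C2 reached the level of the DEN groups and T1 fell among the controls. The averaged difference was 0.60 ± 0.28 for T against C and 0.78 ± 0.26 for G against C, and it was 1.09 and 1.47 when the silent probe was left out.

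Per2, at chr1:93313046-93313105 (mm9), had 6.06, 6.26 and 6.23 in group C and 6.52, 6.83, 6.41 and 6.69 in group T. All livers of group T lay above all controls, although only 1 of the 4 control arrays was well above background. In group G Per2 ran from 6.18 to 6.73 (median 6.37) and overlapped both other groups. The difference was 0.43 ± 0.13 for T against C, 0.23 ± 0.12 for G against C and -0.20 ± 0.11 for G against T.

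Per3 was at 5.86, 6.03 and 5.88 in group C, where its probe was well above background on no array. In group T it was 6.44, 7.52, 6.76 and 7.16, and in the 5 mice of group G with a value it ran from 6.68 to 7.97 (median 6.97). The spot of mouse G6 carried an outlier flag and was left out. Each DEN liver with a value lay above each control. Against the weakest signal called well above background in the controls, Per3 was 1.95-fold higher in T and 2.41-fold higher in G. These folds are no lower bounds, since brighter control spots went without that call, such as Per2 on array C4 at 6.31. The measured differences were 1.04 ± 0.32 and 1.35 ± 0.31, not past the threshold.

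The cryptochromes, partners of the PER proteins, differed from each other. Cry1 lay between 5.84 and 6.03 in every liver and its probe was well above background on no array, so no fold is given. Cry2 was 7.54, 7.53 and 7.97 in group C. Mice T1 to T4 had 8.46, 8.08, 8.21 and 8.18, while group G ran from 7.82 to 9.005 (median 8.48). With both probes averaged, group T lay wholly above group C, and mouse G6 alone of group G lay below the highest control. The difference was 0.55 ± 0.23 for T against C and 0.81 ± 0.21 for G against C. Both Cry2 probes moved the same way, with 0.65 and 0.46 for T against C and 0.97 and 0.64 for G against C. The first of these probes was well above background on 2 of 4 control arrays, and on it T2 (6.52) lay below C3 (6.73).

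Nr1d1, the receptor that represses Arntl, was 6.29, 7.14 and 7.17 in group C and 7.95, 7.51, 8.05 and 7.84 in group T. In group G it ran from 8.22 to 8.47 (median 8.37). Its probe was well above background on 3 of 4 control arrays, C1 excepted, and on all arrays of T and G. The 3 groups did not overlap in any comparison. Nr1d1 rose by 0.97 ± 0.18 in T against C and by 1.49 ± 0.17 in G against C, and the difference of 0.52 ± 0.16 between G and T did not pass. Without C1 the difference of T against C was 0.68. The call in T against C held in 21 of 27 alternative fits. It was lost with either form of the scanner software's processed signal, with the replicate number as a block, with only the 2 groups fitted, and without T3 or without T4. That in G against C held in 23 of 27 and was lost with median scaling, with either processed signal and without G3. The 27 fits leave out the methods' t-tests, in which no member was called. Its probe spans chr11:98630526-98631028 on the minus strand (mm9), that is 503 genomic bases for 60 probe bases, so that it crosses a splice junction and reads spliced RNA. It is shown for that reason.
Nr1d1 probe: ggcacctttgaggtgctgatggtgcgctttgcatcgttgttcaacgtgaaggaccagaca

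Nr1d2, its paralog, was 6.22, 6.98 and 6.68 in group C and 7.21, 7.84, 7.67 and 7.66 in group T, with 7.06 to 7.89 (median 7.43) in group G. Group C lay below both DEN groups, and T and G overlapped. Nr1d2 rose by 0.97 ± 0.22 in T against C, a call held in 15 of 27 alternative fits and lost when any control, T2, T3, T4, G4 or G5 was left out. It was also lost with cyclic loess, with either processed signal and with only the 2 groups fitted. The 0.87 ± 0.20 of G against C did not pass. One of its 2 probes had a value on only 10 of 15 arrays, and both gave differences of the same sign against C. Neither probe was well above background in C1 (6.24 and 6.21). In all, 5 members did not overlap between T and C, beside 19.1% of all genes. The same held for 4 members in G against C, beside 5.86%, and for 1 in G against T, beside 3.13%.

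**Figure D2:**
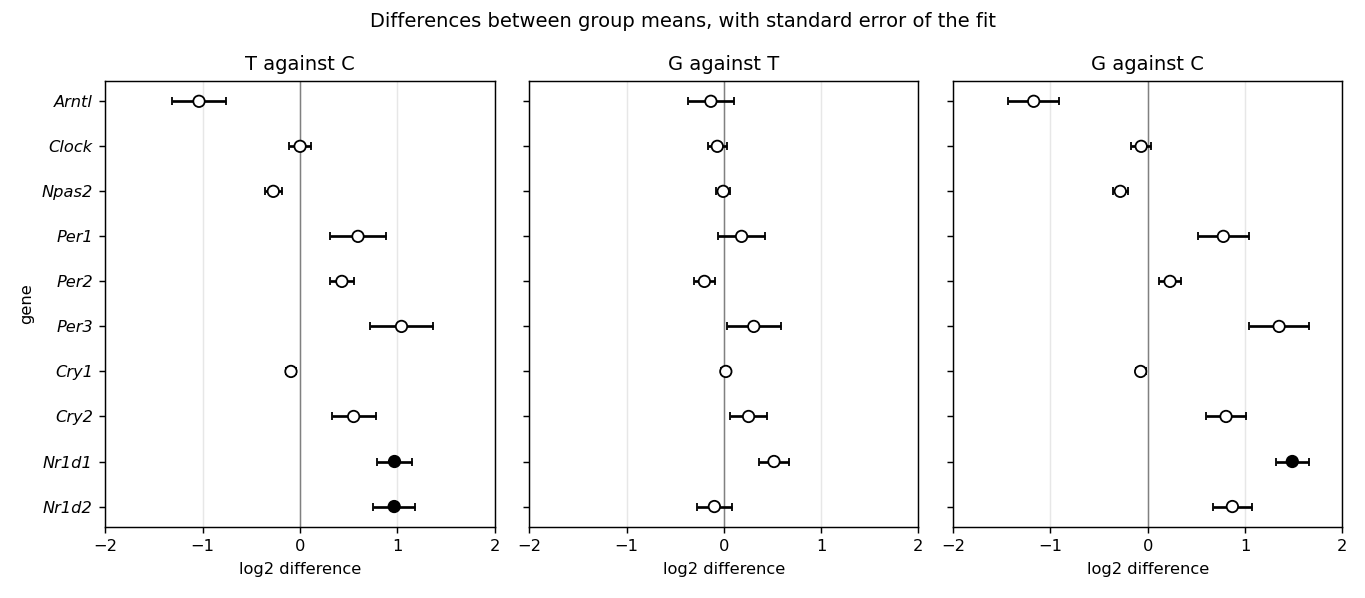
Difference of group means on the log2 scale (x axis) for the 10 clock genes (y axis) in the 3 comparisons, with the standard error of the fit as bars and filled points past an adjusted p of 0.05. Only Nr1d1 and Nr1d2 are filled for T against C, only Nr1d1 for G against C, and none for G against T.

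On both slides taken alone, Arntl was lower and Per1, Per2, Per3, Cry2, Nr1d1 and Nr1d2 were higher in T and in G than in C. For Per2, G against C was only 0.07 on slide 1, smaller in size than the -0.17 between arrays C3 and C4 of the same RNA. Arntl differed by -1.31 on slide 1 and -1.03 on slide 2 for T against C. Between G and T the slides disagreed for several members. Arntl was 0.50 higher in G on slide 1 and 0.54 lower on slide 2 (-0.54), Per3 differed by -0.50 and 0.78, and Per1 by -0.33 and 0.62. For Nr1d1 the difference of G against T was 0.68 and 0.41. Slides held 2 or 3 arrays of a group, and no test was run within a slide. The RNA shared by C3 and C4 and that shared by T4 and T5 lay on both slides, so the slides are not independent.

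The error of the array itself can be read from the repeated RNAs. Between the arrays of one RNA on different slides, Arntl differed by 0.04 in both pairs and Per1 by 0.00 and -0.11 (slide 1 minus slide 2). The widest such difference among the members was -0.29, in Nr1d1 for the C pair, followed by 0.24 in Nr1d2 for both pairs.

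The spread between livers of a group differed widely among members. The residual SD was 0.47 for Per3, 0.41 for Per1, 0.41 for Arntl, 0.33 for Cry2 and 0.31 for Nr1d2. Among the 1000 genes nearest in level, whose median SD was 0.15 to 0.16 there, these lay at percentiles 98.4, 96.3, 95.4, 90.1 and 91. The values of Per1 rest on the average with its silent probe. Its detected probe had SDs of 0.94, 0.69 and 0.87 in C, T and G. Nr1d1 (0.27) and Per2 (0.18) lay at percentiles 84 and 76.6. Clock, Npas2 and Cry1 lay at 55.7, 49.6 and 32.6.

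Within group G, the relation of Arntl to 8 other members was tested over 6 mice. In mice G1 to G6, Arntl was 6.72, 6.35, 7.17, 6.93, 6.33 and 6.98, while Per1 was 7.35, 7.52, 6.77, 6.80, 7.80 and 6.86. The Arntl probe was not well above background in G2. Per1 was high where Arntl was low, with Pearson's r = -0.95 (exact permutation p = 0.0028, adjusted 0.022) and Spearman's rho = -0.94 (exact permutation p = 0.017, adjusted 0.067). These Per1 values average both probes. With each gene read by its brightest probe, which leaves out the silent Per1 probe, no relation passed, that of Per1 included. For Per2, r was -0.90 (exact permutation p = 0.018, adjusted 0.072) and rho -0.94 (exact permutation p = 0.017, adjusted 0.067). The other 6 members had r between -0.47 and 0.52, with adjusted exact permutation p of 0.62 or more. Per3, with a value in 5 of these mice, was not tested. All p-values are two-sided. Without G2 and G5, the mice farthest from the median of Arntl, r was -0.87 for Per1 and -0.62 for Per2 over 4 mice, too few for a test.

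These 6 livers also split by slide. Mice G3, G4 and G6 on slide 1 had Arntl at 6.93 to 7.17 and Per1 at 6.77 to 6.86, and mice G1, G2 and G5 on slide 2 had Arntl at 6.33 to 6.72 and Per1 at 7.35 to 7.80. Arntl, Per1, Per2 and Per3 did not overlap between the slides in group G. With slide means removed, r was -0.75 for Per1 and -0.72 for Per2, with adjusted p of 0.56 for each by exact permutation within slides. With 36 such permutations the smallest p is 0.028 before adjustment, so that 1 relation of the 8 could not pass alone and the relation could not be tested within slides. The slide difference in group G was -0.56 for Arntl and 0.75 for Per1 (slide 2 minus slide 1), between different mice. The part of the slide in the relation was not tested.

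**Figure D3:**
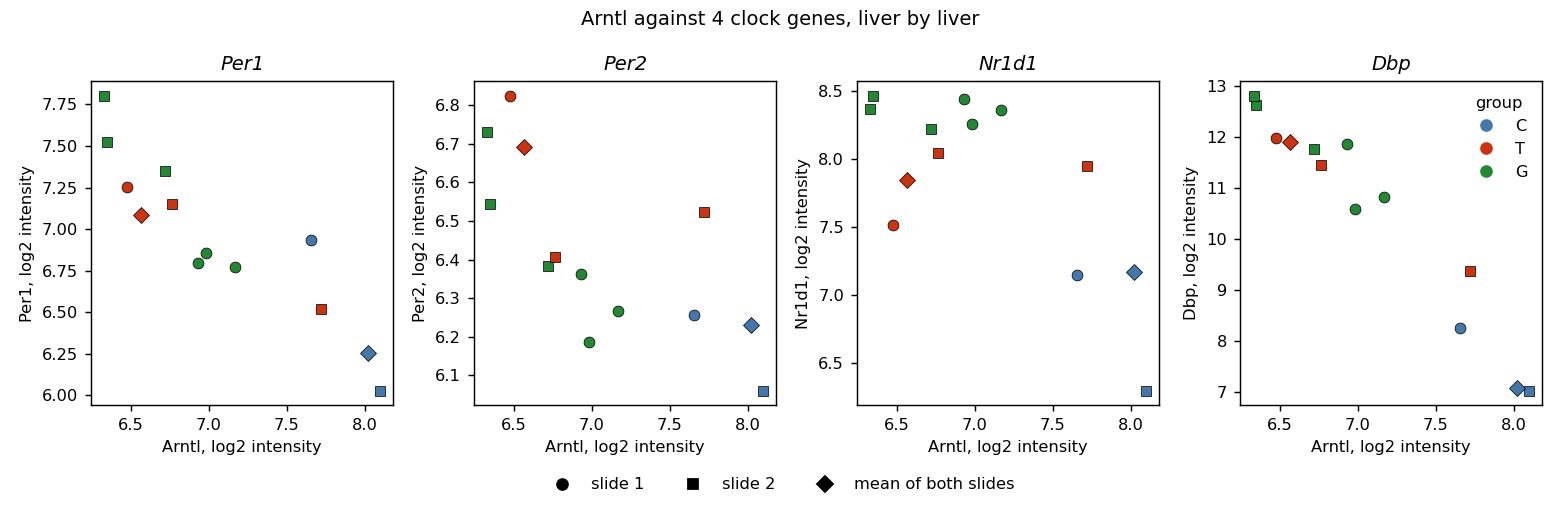
Log2 intensity of Per1, Per2, Nr1d1 and Dbp (y axes) against that of Arntl (x axes) in each liver, with colour giving the group and marker shape the slide. Dbp is lowest in the 3 livers of group C and in mouse T1, the 4 livers with the highest Arntl, while Per1 of mouse C2 (6.93) lies above that of G3, G4 and G6, and Nr1d1 is near 8.4 across group G.

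A further 32 genes of the clock and its outputs were listed, of which 31 were found on the array. In T against C, 2 of the 31 rose (Dbp and Tef) and none fell, beside 2.38% called of all genes, and 14 had an unadjusted p under 0.05, beside 20.3%. The median difference of the list was 0.14, beside 0.01 over all genes. In G against C, 2 rose (Dbp and Tef) and Lonrf3 fell, beside 0.427%, and 9 had an unadjusted p under 0.05, beside 13.2%. The median was 0.10, beside 0.00. Between G and T, limma called none of the 31, beside 0.127%, and none had an unadjusted p under 0.05, beside 10.9%. The output regulator Dbp, a PAR bZIP factor that binds D-boxes, was 7.03, 8.26 and 7.08 in group C and 9.37, 11.99, 11.44 and 11.90 in group T, with 10.59 to 12.81 (median 11.82) in group G. Even T1, the lowest liver of the DEN groups, lay above the highest control. The difference was 3.72 ± 0.67 for T against C and 4.29 ± 0.62 for G against C. Tef, of the same family, rose by 1.53 ± 0.33 and 1.68 ± 0.31. Lonrf3, chosen for mention after its value was seen, fell by 0.68 ± 0.11 (log2, SE) in G against C. Hlf, also a PAR bZIP factor, differed by 0.70 ± 0.24 and 0.71 ± 0.22 without passing, although group C lay below both other groups.

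Nfil3, a repressor that competes for D-boxes, was 9.55, 9.27 and 10.08 in group C and 9.54, 8.60, 8.80 and 8.42 in group T, with 8.12 to 9.29 (median 8.70) in group G. It differed by -0.79 ± 0.29 for T against C and by -0.99 ± 0.27 for G against C, neither past the threshold, and both T1 and G3 lay above C2. Rora, an activator at RORE sites, differed by 0.14 ± 0.14 and -0.06 ± 0.13.

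**Figure D4:**
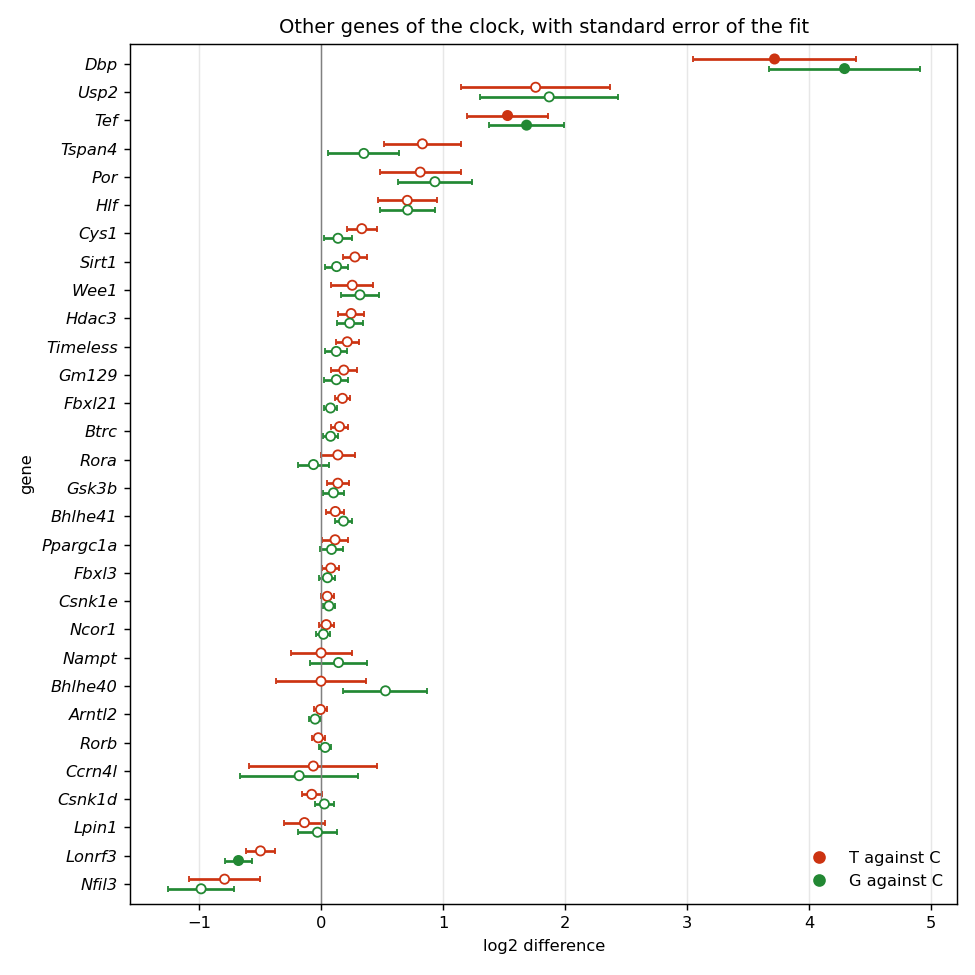
Difference of group means on the log2 scale (x axis) for 30 other clock genes (y axis), T against C in red and G against C in green, with the standard error of the fit as bars and filled points past an adjusted p of 0.05. Dbp stands apart at 3.72 and 4.29, Tef is filled in both comparisons, Lonrf3 only in G against C, and both comparisons use the same control mice.

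Finally, 7943 genes with a value in every mouse and a probe well above background on all arrays were ranked by their Pearson r to Arntl over the 13 mice. The points share the group means, so these r are a description. Among the highest were Tars (0.95), which codes for threonyl-tRNA synthetase, Nfil3 (0.94), the tight junction gene Cgn (0.93) and Gm13889 (0.93). The lowest were Dbp (-0.97), Acap3 (-0.94), Tef (-0.92), the lymphotoxin beta receptor Ltbr (-0.90) and Por (-0.90), the reductase that feeds electrons to the cytochromes P450. After group means were removed, r was -0.96 for Dbp, 0.89 for Nfil3, 0.88 for Tars and -0.75 for Tef. Among the members, this r was -0.87 for Per1, -0.82 for Per3 (12 mice), 0.70 for Npas2, -0.69 for Per2, -0.67 for Nr1d2, 0.15 for Clock, 0.10 for Cry1, 0.04 for Cry2 and 0.00 for Nr1d1. All these r include mouse T1, whose Arntl of 7.72 stood apart from the group T mean of 6.88. They also include the split of Arntl by slide within group G, and the part of either was not tested.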

How the data were processed

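The authors deposited the intensity of every spot of 15 single-colour arrays, as given by Agilent Feature Extraction 10.7.3.1 with mm9 probe positions, together with other flags of that software (well above background, saturated, outlier). A log2 table of the series deposited by the authors served as an alternative. The RNA codes that tie arrays to an extract come from the scanner records.

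The mean signal and median background were corrected with normexp (offset 50) and put on the log2 scale. Control spots were dropped, outlier-flagged spots set to missing, and the 59305 other spots quantile normalized. Spots of a probe were averaged, probes centred, and probes of a gene averaged. Against the authors' table, 99.2% of gene values lay within 0.05. No spot was saturated. The number of mice limits the precision, since arrays have no read depth.

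Groups were compared with limma 3.58.1 in R 4.3.3 (lmFit, eBayes), with Benjamini-Hochberg adjustment over 22032 gene symbols and a threshold of 0.05. A fold over a group without signal well above background was taken against the weakest such signal there, and is no strict bound. Correlations used exact permutations in Python 3.11.15. The model fit was tested on simulated data. The rule for named genes took all members, 6 further clock regulators, list genes past the threshold in T against C, and the 5 genes most like and most unlike Arntl, of which some items are not reported here. The members and lists were chosen with earlier results of these data known. Alternatives covered scaling, background, probe summary, fit and samples, and those on silent probes and on slides within group G were added after the data were seen.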

Additional observations from a re-analysis of the deposited data

How the results depend on the processing

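No member difference past the threshold changed sign under any alternative. For T against C, 2 of 10 members were called, beside 525 of 22032 genes. Median scaling gave 4 (2832 genes) and cyclic loess 1 (185). The processed signal gave 0 at the 75th percentile (56) and 1 when quantile normalized (462). With 15 arrays as separate samples there were 6 (1947), with slide as a term 3 (799, Arntl added), and with only the 2 groups fitted 0 (359). The methods' t-test gave 0 members and 0 genes after Benjamini-Hochberg. At an unadjusted p under 0.05 it gave 7 and 5 members with equal and unequal variances, beside 3846 and 2961 of 22000 genes. Leaving out 1 mouse gave 0 (without T3 or T4) to 3 (without T1). For G against C, the 1 member called became 0 with median scaling, with either processed signal and with the methods' t-test (7 and 5 unadjusted), 2 with offset 10, 4 with a filter for dim probes, 4 with 15 arrays and 2 with slide as a term. That filter kept a probe well above background on every array of at least 1 group. Per3, Nr1d1 and Nr1d2, among the 4 called, were kept only through the DEN groups, where they were higher, so this count is no support. Leaving out 1 mouse gave 0 (without G3) to 3 (without G6), beside 0 to 182 genes over these fits. For G against T, 0 members were called in every setting, leave-one-out included, beside 1 to 263 genes. The fit with the replicate number as a replicate block called 1 member in T against C, none in G against T and 1 in G against C, with 268, 6 and 55 genes over all symbols. Same-number pairs had r from -0.31 to 0.25, with 4 of 10 above 0.1. Pairs of unlike number were not set beside them, so whether the numbers pair the mice was not tested.

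Over all genes, 525 calls in T against C compare with 0 by the methods' t-test and 2832 with median scaling. The 28 calls of G against T ranged from 1 to 263, and the 94 of G against C from 0 to 342. Leaving out 1 mouse gave 89 (without T3) to 761 (without T1) in T against C, 5 to 127 (without T1) in G against T and 0 (without G3) to 182 (without C3) in G against C. In T against C, the median over all genes moved to 0.12 with median scaling and to -0.40 with the 75th percentile.

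The processed signal changes the background correction as well as the offset. With the quantile normalized processed signal, Per3 differed by 4.14 and Per2 by 2.17 in T against C, values that rest on controls near background, and Cry1 by 0.01. Clock turned from 0.00 to 0.38 with median scaling in T against C. Of the relations with Arntl in group G, 1 passed in the setting described, against 0 with median scaling, 0 with the brightest probe, and 2 with cyclic loess and with either processed signal. The 0 without the 2 farthest mice and the 0 within slides come from designs in which 1 relation alone could not pass, and say nothing of stability. Causes of these shifts were not tested. Dim probes, such as those of Cry1 and Npas2, of Per3 in the controls and of Nr1d1 and Nr1d2 in mouse C1, limit what could be measured.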
